A study of Danio rerio with 6 samples.

Results

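In zebrafish neural crest (NC) cells sorted by a Wnt reporter, 49 genes stood far above the high-Wnt level in 2 of the 3 low-Wnt libraries. They were chosen by measured levels. A gene was taken when the lower of its TPM values (transcript abundance scaled for length and to a fixed total per library) in low-Wnt replicates 1 and 2 was at least 10 and at least 3 times the highest TPM of the 3 high-Wnt libraries. The 49 genes were 0.817% of the 6001 genes at 10 TPM or more in both of these low-Wnt libraries and 0.153% of all 32057 genes. The third low-Wnt library was left out of the choice and served as a held-out sample. All 6 libraries came from embryos at 24 hpf (hours post-fertilization) of the AB strain. All carried the transgene Tg(-7.2sox10:EGFP)ir937 together with the Wnt reporter Tg(7XTCF:nls-mCherry)ia5, so that a sox10 promoter drives EGFP in NC cells and TCF binding sites drive nuclear mCherry in cells that respond to canonical Wnt signaling. High-Wnt cells were sorted as mCherry+ and low-Wnt cells as mCherry- NC cells, with 3 libraries of each, so "low-Wnt" refers to the reporter and not to a mutation or treatment. The sort selects whatever cells express the sox10 transgene, which is also active outside the NC, such as in the ear.

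Canonical Wnt signaling acts through β-catenin and TCF/LEF transcription factors. In the NC it takes part in induction and favors pigment over other fates. Among the genes of known function in the set were genes of cell cycle arrest, cell death and the control of growth under stress, beside genes of the extracellular matrix, of immune defense and of signaling inside the cell. Some arrest genes, such as cdkn1a, act by holding back cyclin-dependent kinases, and initiator caspases start the proteolytic cascade of cell death.

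The libraries carried the NC identity of their labels, with 1 library apart. Values are given throughout in the order of replicates 1, 2 and 3. The NC marker SOX10 was at 244, 343 and 310 TPM in high-Wnt cells and at 259, 240 and 72.9 TPM in low-Wnt cells. FOXD3, another NC specifier, was at 122 to 136 TPM in high-Wnt cells and at 82.0, 96.6 and 29.4 TPM in low-Wnt cells. Low-Wnt replicate 3 had 9230 genes at 1 TPM or more, against 13481 to 14417 in the other libraries, and its 100 most abundant genes held 57.2% of the TPM, against 44.8% to 46.3%. The mCherry reporter was not among the genes analysed here, and its sort was not mirrored by every Wnt target gene. AXIN2, a feedback inhibitor and target of canonical Wnt signaling, was at 26.2, 20.4 and 18 TPM in high-Wnt cells and at 24, 23.2 and 1.47 TPM in low-Wnt cells, so that low-Wnt replicates 1 and 2 lay inside the high-Wnt range. In these bulk samples, a lower share of cells of a type and less RNA per cell cannot be told apart. No source used here says whether replicates came from separate clutches, so the spread between them may be partly technical.

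**Figure D1:**
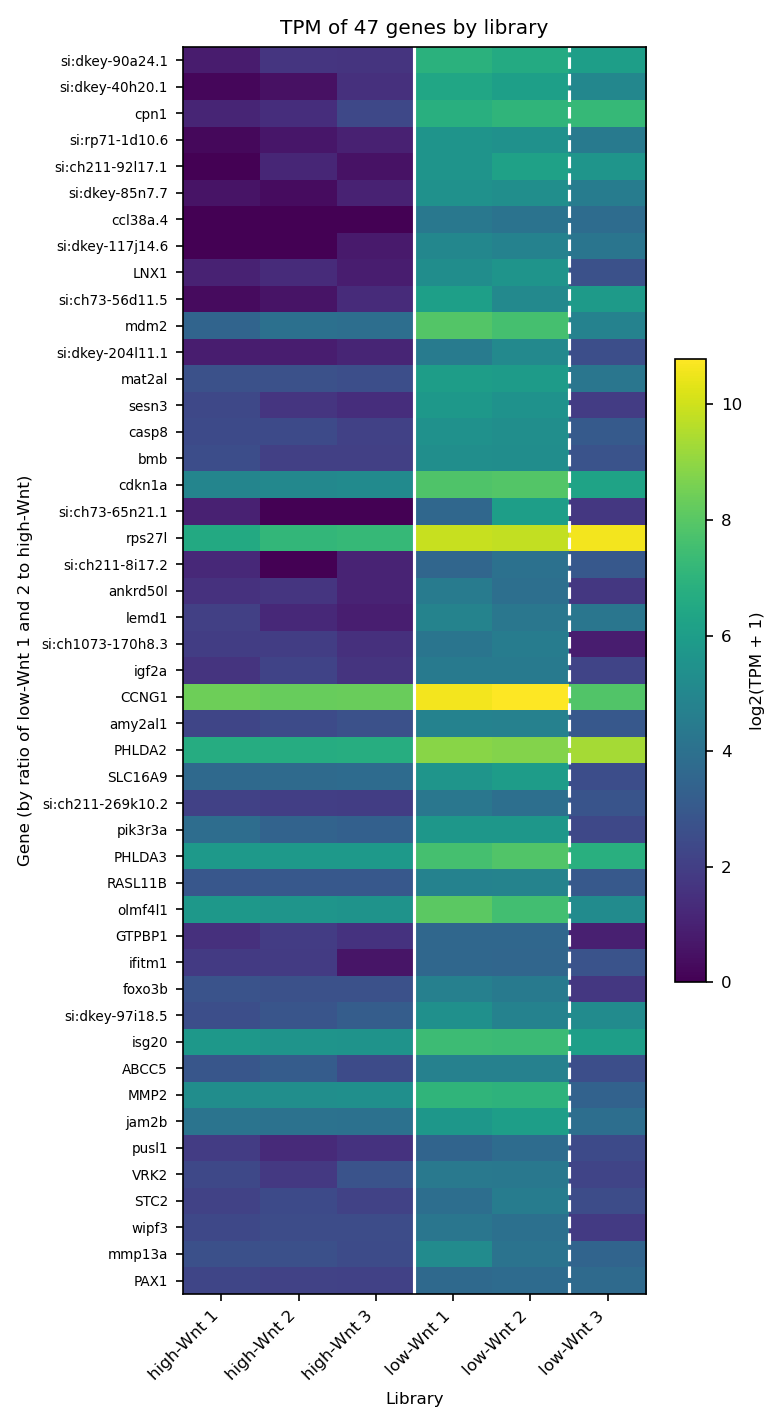
Level of each of 47 genes of the set as log2(TPM + 1) by library, with the high-Wnt libraries left of the solid white line and the held-out low-Wnt replicate 3 right of the dashed one. Rows run from the largest to the smallest ratio of low-Wnt replicates 1 and 2 to high-Wnt, both raised by a pseudocount of 1. The upper rows stay bright in the held-out library, and many lower rows do not.

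The 49 genes covered a wide range of levels. The lower value of low-Wnt replicates 1 and 2 ran from 10.1 TPM for pusl1 to 1557 TPM for CCNG1, with a median of 33.2 TPM, and was 100 TPM or more for 11 genes. In high-Wnt cells, 36 genes were under 10 TPM in all 3 libraries, 4 were under 1 TPM in all 3, and 5 were listed at 0 in at least 1 library. Together the 49 genes made up 973, 991 and 1023 TPM of the high-Wnt libraries and 6218, 6291 and 3671 TPM of the low-Wnt libraries. Low-Wnt replicates 1 and 2 differed by a median of 1.19-fold over the 49 genes and by 1.17-fold over the 6001 genes at 10 TPM or more. The genes with the least even pair, over 2-fold apart, included si:ch73-65n21.1 at 11.2 and 65.5 TPM and mmp13a at 35.9 and 16.3 TPM. Of the 49 genes, 37 were matched by a name that only 1 identifier carries to the RefSeq table. These were 35 protein-coding genes and 2 long non-coding RNA genes, on 20 chromosomes.

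The held-out library divided the set. Low-Wnt replicate 3 was above all 3 high-Wnt libraries for 36 of the 49 genes (73.5%), against 20.4% of the 6001 genes at 10 TPM or more in low-Wnt replicates 1 and 2 and 12.2% of the 14163 genes tested. It was at least 3 times the highest high-Wnt value for 20 of the 49 (40.8%), against 0.5% of the 6001 and 0.544% of the 14163. For 16 genes it was above the high-Wnt range by less than 3 times, and for 13 it was not above that range. The rule had already placed the other low-Wnt libraries above that range. The 36 genes are thus also those with all 3 low-Wnt libraries above it, as were 5.57% of the 14163. The rule also read the high-Wnt values, so these contrasts are not independent of the choice of genes. Both the 6001 and the 14163 genes include the 49. Low-Wnt replicate 3 was the lowest of all 6 libraries for 10 genes, MMP2 and CCNG1 among them. The held-out level reached the lower of the other low-Wnt libraries for 7 genes. The median of its log2 ratio to their mean, with a pseudocount of 1, was -1.74 over the 49 genes and -1.5 over the 6001. Only cpn1, rps27l and PHLDA2 were higher in low-Wnt replicate 3 than in both other low-Wnt libraries. The counts depend on the scaling of that library. After quantile normalization 47 genes were above the high-Wnt range, against 38.9% of the 6001 genes, and after centring each library on its median 48 were, against 53.7%.

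**Figure D2:**
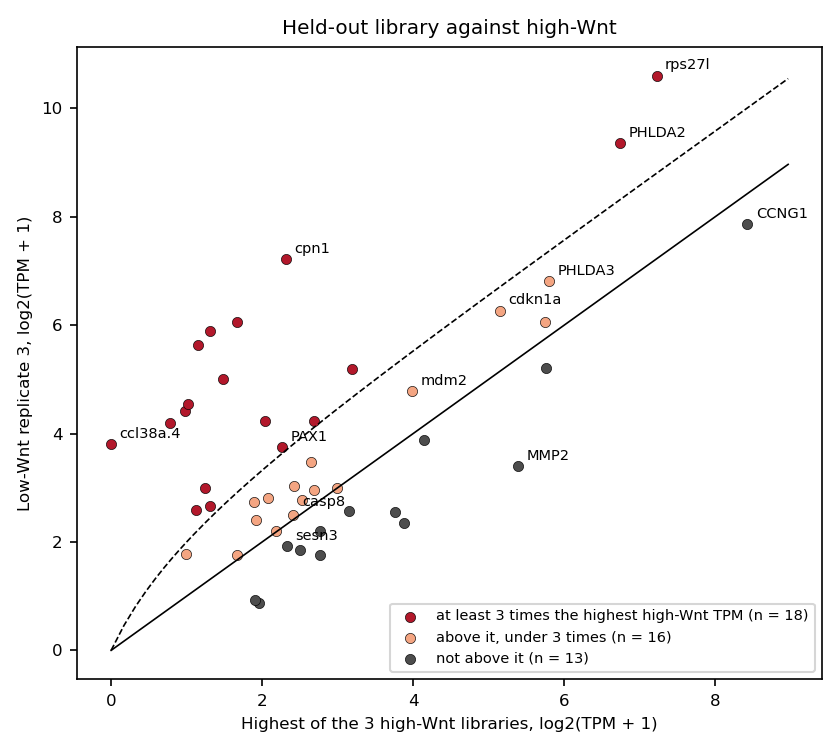
TPM in the held-out low-Wnt replicate 3 (vertical) against the highest TPM of the 3 high-Wnt libraries (horizontal), both as log2(TPM + 1), with 1 point for each of 47 genes of the set. The solid line marks equal TPM and the dashed line a 3-fold difference, with 18 of the genes shown at or above the dashed line, 16 between the lines and 13 on or below the solid line.

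The share of genes that the held-out library placed above the high-Wnt range went up with the ratio in the other low-Wnt libraries. It was 4.92% of the 427 genes with a ratio under 0.5, 17.3% of 3363 genes at 0.5 to 1, 25.7% of 1828 genes at 1 to 1.5, 32.4% of 278 genes at 1.5 to 2, and 48.2% of 56 genes at 2 to 3. The classes and this share use the same high-Wnt values, so a low high-Wnt value raises both. Abundant genes as a whole kept their level better in low-Wnt replicate 3. Where low-Wnt replicates 1 and 2 averaged 10 to 30 TPM, the held-out library was above the high-Wnt range for 10.2% of 2601 genes and for 15 of 21 genes of the set. At 300 TPM or more it was above for 50.7% of 442 genes and for 3 of 4 genes of the set.

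**Figure D3:**
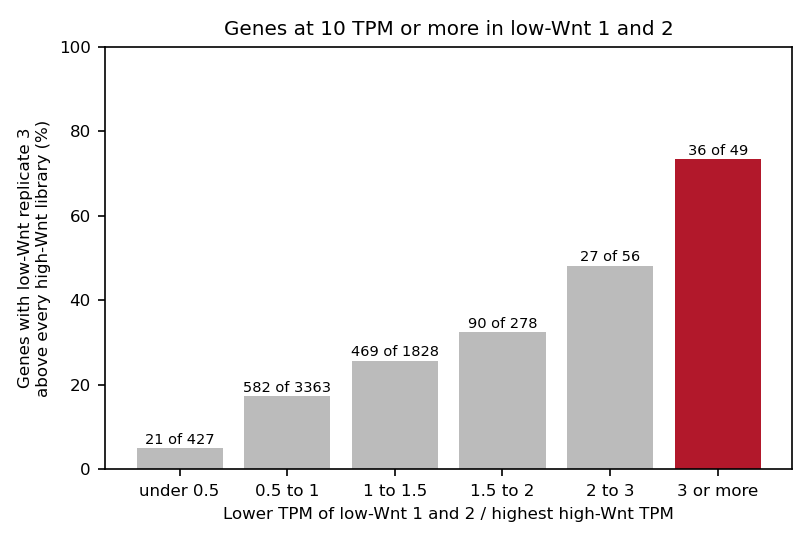
Percentage of genes whose TPM in the held-out low-Wnt replicate 3 was above every high-Wnt library, by the ratio of the lower TPM of low-Wnt replicates 1 and 2 to the highest high-Wnt TPM, among genes at 10 TPM or more in both. The bar for a ratio of 3 or more (red) is the 49 genes, at 73.5%, and numbers above bars give genes above of genes in the class.

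Genes of cell cycle arrest, cell death and stress-induced growth control gave 7 members: mdm2, cdkn1a, CCNG1, casp8, PHLDA3, sesn3 and rps27l. Low-Wnt replicate 3 was above the high-Wnt range for 5 of them, all but CCNG1 and sesn3, beside 36 of the 49 genes. After quantile normalization it was above for 6, sesn3 added, and after median centring for all 7, beside 47 and 48 of the 49. In the same order, the shares of the 6001 genes at 10 TPM or more were 20.4%, 38.9% and 53.7%.

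mdm2, a ubiquitin ligase, was at 10.1, 14.8 and 13.7 TPM in high-Wnt cells and at 237, 193 and 26.6 TPM in low-Wnt cells. The mean of low-Wnt replicates 1 and 2 was 16.7 times the high-Wnt mean. Its held-out value was 1.8 times the highest high-Wnt value and much nearer to high-Wnt cells than to the other low-Wnt libraries.

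cdkn1a encodes p21, an inhibitor of cyclin-dependent kinases that halts the cell cycle. It was at 29.5, 31.5 and 34.5 TPM in high-Wnt cells and at 224, 239 and 76.0 TPM in low-Wnt cells, with the held-out library 2.21 times the highest high-Wnt library. CCNG1, the atypical cyclin G1, was the most abundant gene of the set in low-Wnt replicates 1 and 2. It was at 344, 311 and 318 TPM in high-Wnt cells and at 1557, 1773 and 232 TPM in low-Wnt cells. Its held-out value was the lowest of the 6 libraries, at 0.674 times the highest high-Wnt value. After quantile normalization CCNG1 was still not above the high-Wnt range in that library, and after median centring it was.

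rps27l, a ribosomal protein paralog, had the highest held-out level of the set. It was at 93.4, 141 and 149 TPM in high-Wnt cells and at 936, 905 and 1556 TPM in low-Wnt cells. Its 3 low-Wnt values were all above the high-Wnt range, the held-out one by 10.5 times its highest value. The near-identical paralog rps27 could share reads with it.

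Members that act in cell death, survival and stress were casp8, PHLDA3 and sesn3. casp8, the initiator caspase of death receptor signaling, was at 4.3, 4.34 and 3.21 TPM in high-Wnt cells and at 43.1, 39.4 and 7.23 TPM in low-Wnt cells. PHLDA3, a pleckstrin-homology protein that restrains Akt, was at 54.8, 54.5 and 54.4 TPM in high-Wnt cells and at 194, 231 and 111 TPM in low-Wnt cells. In both genes the held-out value was above the high-Wnt range, at 1.67 times the highest high-Wnt value for casp8 and 2.04 times for PHLDA3. sesn3, of the sestrin family of stress-induced regulators of mTOR signaling and in mammals better known as a FOXO target, was at 4.03, 2.14 and 1.65 TPM in high-Wnt cells and at 53.1, 44.5 and 2.81 TPM in low-Wnt cells. Its held-out value fell inside the high-Wnt range.

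**Figure D4:**
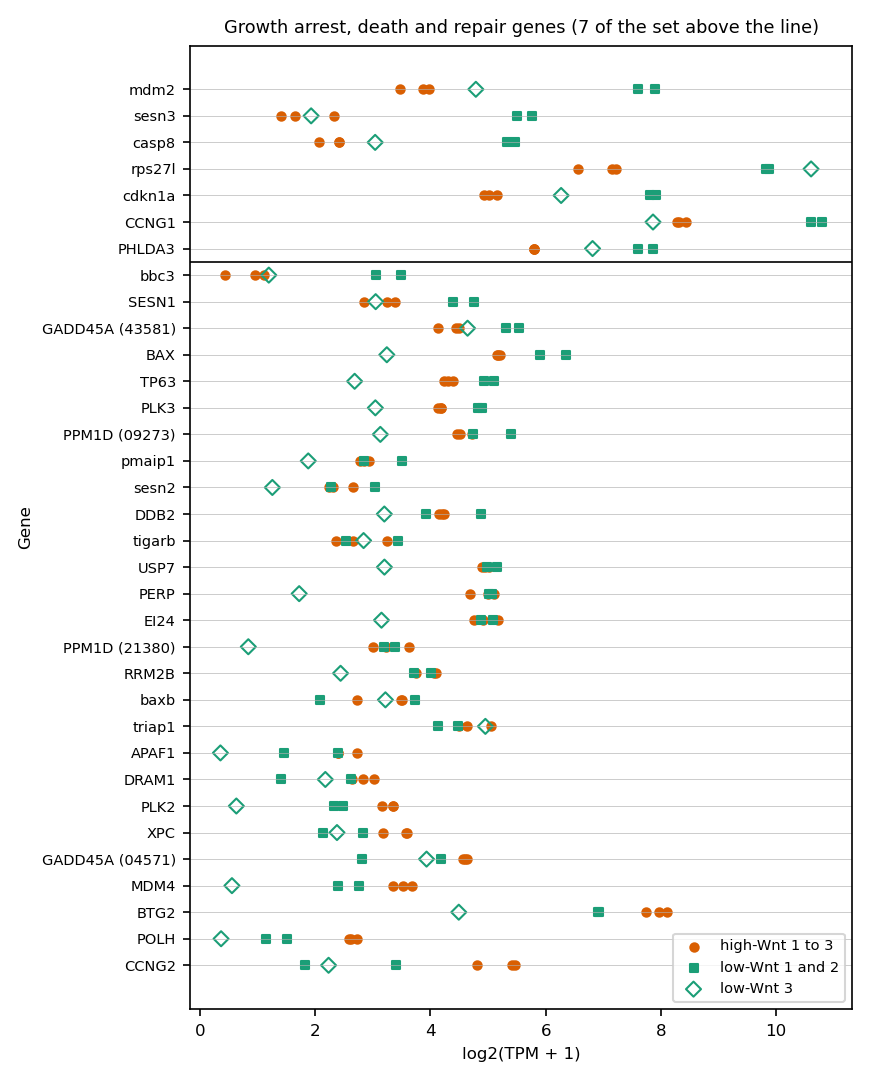
TPM of 34 genes with at least 5 TPM in a library, as log2(TPM + 1), 1 point per library. They are from lists of growth arrest, cell death, DNA repair and metabolism, and of their regulators. The 7 genes above the horizontal line belong to the set, with the 2 filled green squares (low-Wnt replicates 1 and 2) right of the orange circles (high-Wnt). Below it the order varies, and 6 genes were called higher and 5 lower in low-Wnt cells without low-Wnt replicate 3 (open diamonds).

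Other genes on lists of growth arrest, cell death, DNA repair and metabolism, and of their regulators such as MDM4 and TP63, went in both directions. From lists written after the names of the 49 genes had been seen, 32 such genes outside the set were tested without low-Wnt replicate 3. Among these 32, 6 were higher in low-Wnt cells and 5 were lower, where 5.57% and 7.17% of all 15000 genes tested were called (limma, Benjamini-Hochberg adjusted p under 0.05), and 21 were called in neither direction. Their median log2 fold change of low-Wnt over high-Wnt was 0.07, against -0.05 over all genes tested. With all 6 libraries, FDXR did not pass the filter and none of the rest of the 32 was called in either direction. The genes called higher without low-Wnt replicate 3 were bbc3, BAX, SESN1, PLK3, TP63 and one of 2 identifiers named GADD45A. bbc3, which encodes the death inducer Puma, was at 0.35, 0.95 and 1.16 TPM in high-Wnt cells and at 10.3, 7.29 and 1.29 TPM in low-Wnt cells, with a log2 fold change of 2.44 without low-Wnt replicate 3 (SE 0.32, limma with Benjamini-Hochberg adjustment, adjusted p = 0.0046). BAX, the pore-forming effector of mitochondrial death, was at 34.8 to 36.1 TPM in high-Wnt cells and at 80.4, 58.7 and 8.47 TPM in low-Wnt cells.

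Those called lower without low-Wnt replicate 3 were CCNG2, BTG2, MDM4, POLH and one of 2 identifiers named PLK2. CCNG2, the cyclin G2 paralog of CCNG1, was at 27.1, 43.3 and 41.6 TPM in high-Wnt cells and at 2.55, 9.55 and 3.7 TPM in low-Wnt cells, with a log2 fold change of -2.62 without low-Wnt replicate 3 (SE 0.43, limma with Benjamini-Hochberg adjustment, adjusted p = 0.01). In low-Wnt replicates 1 and 2 the cyclin G genes thus lay on opposite sides of the high-Wnt range. MDM4, a relative of mdm2, was at 11.9, 10.5 and 9.22 TPM in high-Wnt cells and at 5.75, 4.25 and 0.47 TPM in low-Wnt cells. BTG2, an antiproliferative gene, was at 212 to 274 TPM in high-Wnt cells and at 119, 121 and 21.5 TPM in low-Wnt cells. A separate list of apoptosis machinery genes held no gene of the set. Without low-Wnt replicate 3, 1 of its 14 genes tested was called higher and 0 lower (limma, Benjamini-Hochberg adjusted p under 0.05). Of all 15000 genes, 5.57% were called higher and 7.17% lower. The median log2 fold change of the 14 was -0.15, and with all 6 libraries none of that list was called.

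The largest ratios of the set were in genes that were almost absent from high-Wnt cells, and most of these had only a clone-based name (si: and a clone identifier), with no described function. All 10 genes with the largest ratio were at least 3 times the highest high-Wnt value in the held-out library, and so were 10 of the other 39. The ratio and this multiple use the same high-Wnt value, so a low high-Wnt value raises both. Of the 13 genes with a clone-based name, low-Wnt replicate 3 was above the high-Wnt range for 12 and at least 3 times its highest value for 10. Of the 36 other genes it was above for 24. Over the 6001 genes at 10 TPM or more, it was above for 20.4% and at least 3 times the highest high-Wnt value for 0.5%.

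si:dkey-90a24.1, a long non-coding RNA in RefSeq, had the largest ratio of the set once 1 TPM was added to both values. It was at 0.79, 2.18 and 2.12 TPM in high-Wnt cells and at 118, 95.2 and 65.5 TPM in low-Wnt cells, and its held-out value was 30 times the highest high-Wnt value. It lies on chromosome 5. The other long non-coding RNA, si:ch211-92l17.1 on chromosome 4, was at 0, 1.23 and 0.45 TPM in high-Wnt cells and at 47.1, 72.0 and 48.5 TPM in low-Wnt cells. Both transcripts were present in every low-Wnt library at a level no high-Wnt library came near.

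The same pattern was found in 5 genes of unknown function. si:dkey-40h20.1 was at 0.15, 0.4 and 1.8 TPM in high-Wnt cells and at 83.8, 66.9 and 31.3 TPM in low-Wnt cells. si:ch73-56d11.5 was at 0.24, 0.47 and 1.48 TPM in high-Wnt cells and at 67.1, 33.2 and 58.2 TPM in low-Wnt cells, so that the held-out value lay between the other low-Wnt values. The remaining 3 were at 1.02 TPM or less in every high-Wnt library. si:rp71-1d10.6 was at 0.17, 0.56 and 0.97 TPM in high-Wnt cells and at 47.6, 43.0 and 20.4 TPM in low-Wnt cells. si:dkey-85n7.7 was at 0.47, 0.27 and 1.02 TPM in high-Wnt cells and at 42.9, 39.5 and 22.3 TPM in low-Wnt cells. si:dkey-117j14.6 was listed at 0 in high-Wnt replicates 1 and 2, was at 0.72 TPM in replicate 3, and was at 30.9, 26.5 and 17.4 TPM in low-Wnt cells. In each of the 5, the lowest low-Wnt value was more than 10 times the highest high-Wnt value.

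cpn1 had the highest mean over low-Wnt cells among the genes of 4 TPM or less in every high-Wnt library. It was at 1.18, 1.67 and 4.0 TPM in high-Wnt cells and at 112, 131 and 148 TPM in low-Wnt cells, and its held-out value was 36.9 times the highest high-Wnt value. A second identifier of the same name is listed in the table, so reads may be split between copies. Some clone-named genes behaved differently. si:dkey-204l11.1, which has the RefSeq synonym tnfrsf27, a name of the tumor necrosis factor receptor family, was at 0.8, 0.8 and 1.18 TPM in high-Wnt cells and at 21.2, 33.1 and 5.03 TPM in low-Wnt cells. si:ch73-65n21.1 was at 0.98, 0 and 0 TPM in high-Wnt cells and at 11.2, 65.5 and 2.41 TPM in low-Wnt cells. si:ch1073-170h8.3 was the exception among the 13, at 1.83 to 2.87 TPM in high-Wnt cells, 17.3 and 22.4 TPM in low-Wnt replicates 1 and 2, and 0.84 TPM in the held-out library. After quantile normalization and after median centring, its held-out value was above the high-Wnt range.

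Immune genes gave 3 members, and all 3 were above the high-Wnt range in the held-out library, beside 36 of the 49 genes. ccl38a.4, a CC chemokine, was listed at 0 in all 3 high-Wnt libraries and was at 19.1, 16.4 and 13.0 TPM in low-Wnt cells. ifitm1, of the interferon-induced transmembrane proteins that restrict virus entry, was at 2.61, 2.71 and 0.53 TPM in high-Wnt cells and at 11.3, 10.9 and 5.71 TPM in low-Wnt cells. isg20, an interferon-stimulated exonuclease, was at 52.9, 46.6 and 45.6 TPM in high-Wnt cells and at 170, 161 and 65.4 TPM in low-Wnt cells. Of 10 other innate immune genes tested without low-Wnt replicate 3, cxcl8a and isg15 were called higher and irf1b lower (limma, Benjamini-Hochberg adjusted p under 0.05). Of all 15000 genes tested, 5.57% were called higher and 7.17% lower. With all 6 libraries cxcl8a, isg15 and irf1b were not called. cxcl8a, the neutrophil chemokine, was at 7.58, 7.62 and 6.19 TPM in high-Wnt cells and at 22.2, 19.4 and 13.0 TPM in low-Wnt cells. The interferon-induced genes mxa and RSAD2 were at 0.44 TPM or less in every library. The summed level of 6 macrophage and neutrophil markers was 636 to 745 TPM in high-Wnt cells and 748, 639 and 969 TPM in low-Wnt cells. Most of the sum in the held-out library was the lysozyme lyz, at 832 TPM there and at 340 to 421 TPM in high-Wnt cells. The other 5 markers summed to 297 to 339 TPM in high-Wnt cells and to 471, 356 and 138 TPM in low-Wnt cells, so that their sum was lowest where lyz was highest. The part of these markers in the immune members was not tested.

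Genes of signaling inside the cell gave 7 members, LNX1, PHLDA2, pik3r3a, RASL11B, VRK2, GTPBP1 and wipf3, with GTPBP1 and wipf3 placed there only loosely. The held-out library was above the high-Wnt range for LNX1, PHLDA2 and RASL11B. After quantile normalization and after median centring it was above for all 7, beside 47 and 48 of the 49 genes. The shares of the 6001 genes were 38.9% and 53.7%. LNX1, a ubiquitin ligase that in mammals targets the Notch inhibitor Numb, was at 1.02, 1.49 and 0.81 TPM in high-Wnt cells and at 37.9, 46.4 and 5.35 TPM in low-Wnt cells. RASL11B, a small GTPase of the Ras family, was at 6.58, 6.8 and 6.94 TPM in high-Wnt cells and at 26.5, 27.8 and 7.00 TPM in low-Wnt cells, so its held-out value was at the upper edge of the high-Wnt range. LNX1 and RASL11B are close neighbors on chromosome 20, with 4 annotated genes between them in RefSeq, 2 of which are protein coding.

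PHLDA2, a pleckstrin-homology protein related to PHLDA3 and known in mammals as an imprinted growth suppressor of the placenta, had nearly equal values within high-Wnt cells. It was at 100.5, 100.8 and 106 TPM in high-Wnt cells and at 466, 442 and 654 TPM in low-Wnt cells, and the held-out value, 6.18 times the highest high-Wnt value, was the highest of the 6. pik3r3a, a regulatory subunit of PI3 kinase, was at 13.7, 9.79 and 8.94 TPM in high-Wnt cells and at 51.6, 52.0 and 4.12 TPM in low-Wnt cells. Its held-out value was the lowest of the 6 libraries. The transcription factor foxo3b, of the FOXO family that acts downstream of PI3 kinase and Akt, had the same order, with 5.82, 5.49 and 5.49 TPM in high-Wnt cells and 25.0, 20.4 and 2.4 TPM in low-Wnt cells.

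Secreted, matrix and adhesion genes gave 7 members, and their held-out values were mixed. MMP2, a gelatinase that remodels basement membrane collagen, was at 37.96, 38.95 and 40.96 TPM in high-Wnt cells and at 131, 124 and 9.58 TPM in low-Wnt cells. Its held-out value was 0.234 times the highest high-Wnt value, and MMP2 was the only gene of the set that stayed under the high-Wnt range in that library after quantile normalization and after median centring. With all 6 libraries its log2 fold change was 0.48, and it was -0.15 without low-Wnt replicate 1 and -0.11 without low-Wnt replicate 2. MMP2 was also the only one of the 49 on the matrix list. Of the 25 other genes there tested without low-Wnt replicate 3, 5 were lower in low-Wnt cells and none was higher. Of all 15000 genes, 7.17% were lower and 5.57% higher (limma, Benjamini-Hochberg adjusted p under 0.05). Those 5 matrix genes were both identifiers of the type I collagen chain COL1A1 (col1a1a and COL1A1), the laminin chain lamc1, the proteoglycan LUM and the fibulin FBLN1. With all 6 libraries no gene of the matrix list was called. COL1A1 was at 34.7 to 38.5 TPM in high-Wnt cells and at 11.4, 17.5 and 2.03 TPM in low-Wnt cells.

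mmp13a, an interstitial collagenase, was at 5.16, 5.24 and 4.48 TPM in high-Wnt cells and at 35.9, 16.3 and 10.1 TPM in low-Wnt cells, with all 3 low-Wnt values above the high-Wnt range. igf2a, an insulin-like growth factor, was at 2.09, 3.55 and 2.1 TPM in high-Wnt cells and at 19.96, 21.1 and 3.61 TPM in low-Wnt cells. STC2, a stanniocalcin, was at 3.43, 4.29 and 3.4 TPM in high-Wnt cells and at 13.9, 22.0 and 4.67 TPM in low-Wnt cells. For igf2a and STC2 the held-out value was just above the highest high-Wnt value, at 1.02 and 1.09 times it. jam2b, a junctional adhesion molecule, was at 15.5 to 16.7 TPM in high-Wnt cells and at 51.1, 64.6 and 13.7 TPM in low-Wnt cells. The olfactomedin olmf4l1 was the most abundant of this group, at 45.7 to 53.2 TPM in high-Wnt cells and at 269, 184 and 36.0 TPM in low-Wnt cells. Both were under the high-Wnt range in the held-out library as deposited and above it after quantile normalization and after median centring.

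Enzymes and transporters gave 5 members. mat2al, a methionine adenosyltransferase, of the enzymes that make the methyl donor S-adenosylmethionine, was at 5.45, 5.39 and 5.12 TPM in high-Wnt cells and at 64.0, 60.0 and 17.8 TPM in low-Wnt cells. Its held-out value was 3.27 times the highest high-Wnt value. SLC16A9, of the monocarboxylate transporter family, was at 12.1, 12.2 and 12.5 TPM in high-Wnt cells and at 47.9, 60.6 and 4.88 TPM in low-Wnt cells, and its held-out value was the lowest of the 6. ABCC5, an efflux transporter, was at 4.59 to 7.87 TPM in high-Wnt cells and at 25.6, 25.8 and 4.96 TPM in low-Wnt cells, inside the high-Wnt range in the held-out library. The amylase amy2al1 was above its high-Wnt range in the held-out library, at 6.76 TPM. The pseudouridine synthase relative pusl1 was at 2.77, 1.45 and 1.95 TPM in high-Wnt cells and at 10.1, 12.9 and 4.33 TPM in low-Wnt cells. Its held-out value was above the high-Wnt range.

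Among the remaining named genes, the transcription factor PAX1, which acts in the endoderm of the pharyngeal pouches and in the sclerotome, had the most even low-Wnt values. It was at 3.82, 3.42 and 3.3 TPM in high-Wnt cells and at 11.8, 12.5 and 12.4 TPM in low-Wnt cells. A second identifier named PAX1 was not in the set. bmb, known in zebrafish for nuclear fusion in the cleaving embryo, was at 4.78, 3.18 and 3.08 TPM in high-Wnt cells and at 39.2, 38.5 and 5.82 TPM in low-Wnt cells. lemd1, a LEM domain gene, was at 3.1, 1.38 and 0.88 TPM in high-Wnt cells and at 27.5, 18.4 and 17.9 TPM in low-Wnt cells. In both, all low-Wnt values were above all high-Wnt values, by 1.22 times in the held-out library for bmb and by 5.76 times for lemd1.

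The thresholds did not fall in a gap of the values. Just inside the ratio were MMP2 at 3.03, isg20 at 3.05 and jam2b at 3.07, and just outside were ccr12b.2 at 2.98, rpz5 at 2.93 and B4GALT1 at 2.91. Their held-out values were 1.71 TPM for ccr12b.2, 10.8 TPM for rpz5 and 13.8 TPM for B4GALT1, of which that of B4GALT1 was above its highest high-Wnt value of 10.9 TPM. Just inside the TPM minimum were pusl1 at 10.1, si:ch211-8i17.2 at 10.7 and ifitm1 at 10.9 TPM, and just outside were si:ch73-65n21.2 at 9.79, rd3 at 8.6 and si:dkey-22h13.5 at 8.35 TPM. The held-out values of these 3 were 0.18, 10.04 and 7.47 TPM. si:ch211-8i17.2 was at 1.37, 0 and 1.1 TPM in high-Wnt cells and at 10.7, 15.4 and 6.96 TPM in low-Wnt cells. Its held-out value was above the high-Wnt range. With a ratio of at least 2, 63 of 105 genes were above the high-Wnt range in the held-out library, and with a ratio of at least 5, 23 of 25 were.

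The model over all 6 libraries called 12 of the 49 genes higher in low-Wnt cells, where 0.106% of the 14163 genes tested were called in that direction and 0.261% in the other (limma on log2(TPM + 1), Benjamini-Hochberg adjusted p under 0.05). Since the rule used 5 of these libraries, these calls describe the set and test nothing. Among the 12 were rps27l, PHLDA2, cpn1, ccl38a.4 and 7 clone-named genes. After quantile normalization 37 of the 49 were called higher, beside 0.6% of all genes higher and 0.65% lower. Without low-Wnt replicate 3 all 49 were called, beside 5.57% of 15000 genes. The rule also read the high-Wnt values used in a fit of low-Wnt replicate 3 alone against the high-Wnt libraries. Calls in that fit are thus not independent of the choice of genes. The fit also takes the lone library to vary as the high-Wnt libraries do. It called 24 of the 49 genes higher and 5 lower when no gene was filtered out, beside 4.05% and 40.3% of 22931 genes. With the filter on low TPM, 40 of the 49 could be tested, and 21 were called higher and 9 lower, beside 7.14% and 72.6% of 13314 genes. After quantile normalization the fit called 34 higher and 2 lower, beside 25.0% and 25.5% of all genes, and after median centring 38 higher and 0 lower, beside 35.2% and 19.8%. The 9 genes that did not pass the filter were under 1 TPM in at least 2 high-Wnt libraries.

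No gene of the set was a marker in the 15 cell type lists, and among the 10 pathway lists only MMP2 was. Without low-Wnt replicate 3, 4 of 130 marker entries tested were higher in low-Wnt cells (oc90, TP63, GATA5 and TAL1) and 48 were lower. Of all 15000 genes tested, 5.57% were higher and 7.17% lower (limma, Benjamini-Hochberg adjusted p under 0.05). Both identifiers named SOX9 are on the cartilage list and again on the early crest list, so their entries are counted in each. With all 6 libraries no marker was called higher, and only krt17 and tbxta were called lower. The immediate early and stress list had 10 of 21 genes lower and none higher without low-Wnt replicate 3. With all 6 libraries none of its genes was called. ATF3, a stress-induced transcription factor, was at 220 to 277 TPM in high-Wnt cells and at 150, 130 and 25.0 TPM in low-Wnt cells, in the opposite direction to cdkn1a. The summed level of 10 muscle markers was 1610 to 2320 TPM in high-Wnt cells and 642, 605 and 921 TPM in low-Wnt cells, and that of 14 otic markers was 90.2 to 101 TPM and 134, 152 and 67.1 TPM. Without oc90, an otolith matrix protein gene, the other 13 otic markers summed to 65.3 to 68.3 TPM in high-Wnt cells and to 75.0, 67.7 and 50.2 TPM in low-Wnt cells. The part of these differences in the levels of the 49 genes was not tested.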

How the data were processed

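Smart-seq2 libraries of FACS-sorted cells were mapped to GRCz11 with STAR and quantified per gene with RSEM by the authors, who deposited TPM. TPM keep no sequencing depth, so no counting error was derived, and a rise of abundant transcripts lowers all others. The authors tested counts with edgeR, which TPM do not allow. A linear model of log2(TPM + 1) on population was fitted in limma 3.58.1 (R 4.3.3), with a variance trend and Benjamini-Hochberg adjustment over the genes that reached 1 TPM in 3 or more libraries (2 where a library was left out). The pseudocount understates changes of low genes. Symbols covered 28988 of 32057 identifiers. Of the names given to the 49 genes, 5 are shared by 2 identifiers. RefSeq (GRCz12tu) served only for names, biotypes and gene order. Promoters were not analysed here. The members and lists were chosen with earlier results of these data known, and 7 lists, including those of growth arrest and cell death, after the members' names were seen. Genes given in full were the 15 with the largest ratio, the 5 highest in low-Wnt replicate 3, those on a list and those just inside the thresholds, except 2 genes of the set that are not reported here. Others were named by role, and genes just outside the thresholds were given with fewer values than planned. Columns were assigned by the sample labels. The model was checked on simulated data in which 200 genes were raised by 2 on the log2 scale. It recovered 38 of the 200 with 6 libraries and 178 without low-Wnt replicate 3, and called 4 and 12 unchanged genes. The fit over 6 libraries thus missed most changes of that size in the simulation. There the noise was independent and alike in every library, while in the data low-Wnt replicate 3 stood apart. The recovery may thus differ in the data. Tables and plots used Python 3.11.15, pandas 2.3.3 and matplotlib 3.10.9.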

Additional observations from a re-analysis of the deposited data

How the results depend on the processing

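The count of genes called higher in low-Wnt cells was 15, and was 9 with a pseudocount of 0.1, 3 with no filter, 9 with no variance trend, 85 after quantile normalization, 35 after median centring and 1557 with sample quality weights. Genes called lower numbered 37, and 8, 1, 4, 92, 11 and 2571 under the same settings, and 2 with a mean TPM of at least 5. Of the 49 genes, 12 were called, and 3 with no filter, 37 after quantile normalization, 28 after median centring and 49 with quality weights, which gave low-Wnt replicate 3 a weight of 0.0368. Leaving out libraries gave 0 to 836 higher genes, 0 to 1076 lower genes and 0 to 49 of the set, with all calls in the fit without low-Wnt replicate 3. The 5 fits with 0 calls had 1003 to 2962 genes at an unadjusted p under 0.05. The cause was not tested. The replicate number as a block gave 33 higher and 135 lower genes and 20 of the set. Deviations of same-numbered libraries from their group means were hardly correlated (r = 0.03, -0.01 and 0.14). Low-Wnt replicate 3 stood apart and weighs on the low-Wnt means. These correlations thus cannot decide whether the numbers pair the samples.

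The fit of low-Wnt replicate 3 alone called 34 genes of the set higher after quantile normalization and 38 after median centring, against 21, and 19 to 27 with a high-Wnt library left out. A ratio of at least 2 chose 105 genes, 63 of them above the high-Wnt range in the held-out library, and a ratio of at least 5 chose 25, with 23 above. A TPM minimum of 5 chose 62 genes, and of 20 chose 33, with 71.0% and 72.7% above. The log2 fold change of MMP2 ran from -0.15 to 1.68 with a library left out, and was -0.15 and -0.11 without low-Wnt replicates 1 and 2. The fold changes of the other 48 genes stayed above 0 in these fits. On the log2 scale they moved by over 1.5 times for 7, 8 and 12 genes without low-Wnt replicates 1, 2 and 3, the last count including MMP2, and for 0 genes without a high-Wnt library. TPM give no depth, and 3 libraries a population limit the precision.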

Other observations

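Of the 15 genes called higher in low-Wnt cells over 6 libraries, 3 were not in the set. RSPO1, a secreted agonist of canonical Wnt signaling, was at 0.03, 0.31 and 0.33 TPM in high-Wnt cells and at 10.7, 5.72 and 7.5 TPM in low-Wnt cells, with a log2 fold change of 2.85 (SE 0.4, limma with Benjamini-Hochberg adjustment, adjusted p = 0.042), higher in 3 of 3 low-Wnt libraries. MT-CYB, the mitochondrially encoded cytochrome b, was at 1573, 1363 and 1287 TPM in high-Wnt cells and at 4517, 3089 and 3781 TPM in low-Wnt cells, with a log2 fold change of 1.42 (SE 0.2, adjusted p = 0.042 by limma). si:dkey-21o19.8 was listed at 0 in all high-Wnt libraries and was at 5.23, 5.24 and 3.94 TPM in low-Wnt cells. With each library but low-Wnt replicate 3 left out, limma called no gene.

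Most cell cycle genes were called in neither direction. Of 21 tested without low-Wnt replicate 3, CCND1 and CCNE1 were called higher in low-Wnt cells and CCNB1 lower (limma, Benjamini-Hochberg adjusted p under 0.05), beside 5.57% and 7.17% of all genes. CCND1, the cyclin of G1 progression, was at 124 to 133 TPM in high-Wnt cells and at 253, 224 and 24.6 TPM in low-Wnt cells. CCNB1, the mitotic cyclin, was at 136 to 155 TPM in high-Wnt cells and at 89.5, 77.1 and 40.5 TPM in low-Wnt cells. PCNA was at 1166 to 1377 TPM in high-Wnt cells and at 1471, 1597 and 1654 TPM in low-Wnt cells, and was not called. Of 28 Wnt pathway genes tested without low-Wnt replicate 3, 4 were called higher in low-Wnt cells and 3 lower. The higher ones were SP5, RSPO1, WLS and WIF1, beside 5.57% of all genes. The lower ones, beside 7.17%, were TCF7L2, tcf7l1b and an identifier named SFRP1, with log2 fold changes of -1.73, -1.26 and -1.19. Over all 6 libraries only RSPO1 was called. SP5 is a transcription factor and direct Wnt target. It was at 5.9, 7.36 and 6.16 TPM in high-Wnt cells and at 16.8, 19.2 and 15.98 TPM in low-Wnt cells. The fit over 6 libraries gave SP5 a log2 fold change of 1.29 (adjusted p = 0.21 by limma with Benjamini-Hochberg adjustment). The fit without low-Wnt replicate 3 gave 1.35 (adjusted p = 0.0081 by limma).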
